A study of Homo sapiens with 28 samples.

Results

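The axon guidance ligands and receptors were taken as every counted gene whose symbol belongs to the semaphorin classes 3 to 7, the plexins, the neuropilins, the Eph receptors, the ephrins, the Slits, the Robos, the netrins, the netrin-Gs or the UNC5 receptors, together with DCC. The symbols alone chose them, and no measured value entered the choice. The rule found 71 genes of the 26346 gene symbols counted: 20 semaphorins, 9 plexins, 2 neuropilins, 14 Eph receptors, 8 ephrins, 3 Slits, 4 Robos, 4 netrins, 2 netrin-Gs, 4 UNC5 receptors and DCC. They are 37 ligands and 34 receptors.

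RNA was sequenced from AN3CA, an established human endometrial carcinoma cell line, in 28 polyA-selected libraries. Each line carried either an ARID1A or ARID1B construct or an empty vector. ARID1A and ARID1B are alternative DNA-binding subunits of the canonical BAF chromatin remodelling complex, and the series asks how the disordered parts of these subunits act in that complex. The constructs built on ARID1A were the wild type (ARID1A WT), 2 truncations (delIDR1 and CBR), DBDmut with its ARID domain mutated, a hybrid carrying the disordered region of the DDX4 protein (DDX4), the AQG scramble (AQGscram) and 42YS. Those built on ARID1B were the wild type (ARID1B WT), M2, which lacks the residues named S320_G327del, and the deletions A457_G461del, Block13del and Block9del. Each construct had 2 libraries and the empty vector had 4. No treatment was given to any group, and every group therefore shares the AN3CA background, including whatever ARID1A and ARID1B alleles that line carries. The labels do not say how the constructs were introduced, whether a line was 1 clone, or whether the libraries of a group were separate cultures. The p-values thus reflect only how these libraries vary, and that variation may be technical.

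Axon guidance molecules are cell surface and secreted proteins that steer growing nerve fibres, and most of them also act in epithelial and vascular tissue. Semaphorins signal through plexins, and class 3 semaphorins usually need a neuropilin co-receptor. Ephrins are membrane-bound ligands of the Eph receptor tyrosine kinases, and the contact between them sorts cells and sets boundaries in epithelia. Slits bind Robo receptors, netrins bind DCC and the UNC5 receptors, and the netrin-Gs are membrane-anchored relatives of the netrins.

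The upstream sequences of 4 ligand genes are shown to set genes without a read in any empty vector library (SEMA5B, SLIT3 and NTN4) beside one read in all of them and higher in every construct (SEMA3F). Each is the 250 bases before the 5′-most RefSeq start on GRCh38.p14, written 5′ to 3′ along the gene's strand, with CpG dinucleotides in capitals.
SEMA5B (chr3:123028606-123028855, minus strand): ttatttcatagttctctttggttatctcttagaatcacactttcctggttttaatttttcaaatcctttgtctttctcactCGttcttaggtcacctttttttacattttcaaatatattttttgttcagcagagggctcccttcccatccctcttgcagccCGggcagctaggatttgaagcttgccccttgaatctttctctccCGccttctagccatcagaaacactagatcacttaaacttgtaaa
SLIT3 (chr5:169301140-169301389, minus strand): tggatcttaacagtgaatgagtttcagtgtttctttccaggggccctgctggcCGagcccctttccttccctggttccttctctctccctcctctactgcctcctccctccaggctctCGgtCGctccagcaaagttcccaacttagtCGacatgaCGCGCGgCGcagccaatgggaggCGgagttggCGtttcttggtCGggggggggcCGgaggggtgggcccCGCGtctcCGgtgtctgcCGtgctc
NTN4 (chr12:95791156-95791405, minus strand): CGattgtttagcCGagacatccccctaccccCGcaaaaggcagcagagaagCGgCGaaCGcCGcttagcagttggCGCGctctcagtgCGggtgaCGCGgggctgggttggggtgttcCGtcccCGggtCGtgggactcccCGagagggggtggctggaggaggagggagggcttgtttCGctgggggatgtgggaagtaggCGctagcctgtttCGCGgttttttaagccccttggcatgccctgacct
SEMA3F (chr3:50154808-50155057, plus strand): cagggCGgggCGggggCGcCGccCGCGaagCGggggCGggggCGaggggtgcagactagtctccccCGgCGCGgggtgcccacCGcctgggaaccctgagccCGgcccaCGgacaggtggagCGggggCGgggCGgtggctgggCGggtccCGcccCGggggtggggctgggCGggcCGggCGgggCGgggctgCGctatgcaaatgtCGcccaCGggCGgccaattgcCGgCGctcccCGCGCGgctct
The SEMA5B stretch held 3 CpGs and was 39.2% G and C, against 34 CpGs and 82.0% in the SEMA3F stretch. SLIT3 and NTN4 lay between, with 16 and 20 CpGs and 62.8% and 64.4% G and C. RefSeq lists 3 starts for SEMA5B, 1 for SLIT3, 2 for NTN4 and 3 for SEMA3F, and which start was used cannot be read from gene counts.

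Upstream sequences of this kind were at hand for 60 of the 71 genes. Their median CpG count was 17.5, against 10 over 27305 genes of the table, and their median G and C content was 65.4%, against 57.6%. Among these 60, the median was 20 CpGs for genes with enough reads to be tested and 14.5 for those without. The GC box letters GGGCGG, read on both strands, occurred in 44 of the 60 (73.3%), against 42.2% of all genes. TGANTCA, the letters of an AP-1 site, occurred in none of the 60, against 6.57% of all genes, and GGAATG, the letters of a TEAD site, in 3 of them (5.0%, against 12%). TGTGGT, the letters of a RUNX site, occurred in 5 (8.33%, against 11.1%). The letters occurred in 82.5% of the 40 genes tested and in 55.0% of the 20 not tested. SEMA3F held 12 GC boxes in its 250 bases, and SEMA5B, SLIT3 and NTN4 held 0. Other genes went the other way. SEMA5A and SLIT2, without an empty vector read, held 7 and 5. ROBO1 and PLXNB1, averaging 165 and 77.7 CPM with the empty vector, held 0. A match of letters is a description of the sequence and not a site of binding.

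Between 16.6 M and 27.9 M reads per library fell on genes, with a median of 22.05 M. The construct genes stood above the empty vector in most groups. ARID1A was at 702 and 764 CPM (read counts scaled to library size and composition) in ARID1A WT libraries, against 272, 296, 300 and 287 CPM in empty vector libraries. It was at 284 and 210 CPM in AQGscram libraries and at 373 and 375 CPM in 42YS libraries, so ARID1A counts with AQGscram did not stand above the empty vector level. Gene counts do not separate construct RNA from the RNA of the cell's own ARID1A gene, so the level of AQGscram RNA itself is not known. ARID1B averaged 98 CPM with the empty vector, and its libraries had 3440 and 3760 CPM with ARID1B WT, 4320 and 4180 with M2, 2260 and 2210 with A457_G461del, 888 and 878 with Block13del, and 343 and 344 with Block9del. The markers of the labelled tissue were partly absent: 5 of 12 endometrial or Müllerian carcinoma markers reached 1 CPM with the empty vector, and SOX17, ESR1 and PGR were under 0.1 CPM in every group. Of 8 neuron markers only SYP reached 1 CPM, and the summed neuron markers ranged from 3.42 to 12.2 CPM in construct libraries and from 4.23 to 11.8 CPM in empty vector libraries. Summed endothelial markers stayed between 0 and 0.585 CPM in construct libraries and between 0.0557 and 0.315 CPM in empty vector libraries. Stromal markers summed to 1930 to 3760 CPM and to 2290 to 3250 CPM, most of it COL1A2, and leukocyte markers to 1.22 to 16.8 CPM and to 1.63 to 2.81 CPM, most of it CD68, in construct and in empty vector libraries. In bulk RNA, fewer cells with a transcript and less of it per cell cannot be told apart.

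The libraries stood apart in 3 sets by the share of reads on the sense strand of genes, which the labels do not mention. Set 1 (84.5% to 87.8%, 10 libraries) held ARID1A WT, CBR, delIDR1, DBDmut and replicates 1 and 2 of the empty vector. Set 2 (98.1% to 98.6%, 8 libraries) held M2, ARID1B WT, DDX4 and the empty vector's replicates 3 and 4. Set 3 (96.7% to 97.9%, 10 libraries) held AQGscram, 42YS, A457_G461del, Block13del and Block9del, and no empty vector. In any comparison of a set 3 construct with the empty vector, construct and set thus cannot be told apart. Values against all 4 empty vector libraries come first here, and values against the pair of the same set, called the own pair, or against each pair in turn for set 3, stand beside results that they change.

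Of the 71 genes, 49 had enough reads in some group to be tested among 14220 genes. Of these 49, 38 had at least 10 reads in at least 2 empty vector libraries, and the other 11 entered the test mainly through construct groups. The 22 genes left out were DCC, 7 Eph receptors, 2 Robos, 3 UNC5 receptors, 6 semaphorins, SLIT2, NTNG1 and NRP2. None of them exceeded a group mean of 0.463 CPM, which was EPHA5 in ARID1A WT libraries, and NTNG1 had no read in any library. Among the 71 genes, the netrin receptors tested were thus UNC5B alone, and the class A Eph receptors EPHA2 and EPHA10. NEO1, from the list of other netrin receptors and effectors followed below, lay outside the rule. It averaged 164 CPM (read counts scaled as above) with the empty vector.

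More of these genes were higher than lower with ARID1A WT and with ARID1B WT. With ARID1A WT, 26 of the 49 rose and 2 fell at an adjusted p under 0.05 (edgeR's quasi-likelihood test with Benjamini-Hochberg adjustment over all 14220 genes), against 21.1% of all genes that rose and 23.5% that fell. With ARID1B WT, 25 rose and 4 fell, against 19.2% and 23.9% of all genes. Because the 11 genes that passed through construct groups had to be higher there, the 38 genes read in the empty vector were counted apart: 18 rose and 2 fell with ARID1A WT, against 18.5% and 25.7% of the 12963 genes read in the empty vector by the same rule, and 17 rose and 4 fell with ARID1B WT, against 17.3% and 25.9%. Their median log2 fold change was 0.29 with ARID1A WT and 0.14 with ARID1B WT. Against the own pair, 21 of the 38 rose and 7 fell with ARID1A WT (28.2% and 33.5% of the 12963 genes), and 23 rose and 7 fell with ARID1B WT (22.0% and 31.2%).

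Higher genes also outnumbered lower ones with the truncations of ARID1A, DBDmut, DDX4 and M2. With CBR, 32 of the 49 rose and 3 fell (25.2% and 27.8% of all genes), and with delIDR1 32 rose and 2 fell (22.4% and 27.7%). DBDmut had 22 higher and 1 lower (16.9% and 18.3%), DDX4 21 higher and 5 lower (19.7% and 19.8%), and M2 24 higher and 7 lower (22.1% and 25.1%). Among the 38 genes read in the empty vector, 29 rose and 3 fell with CBR (24.1% and 30.4% of the 12963 genes), 27 and 2 with delIDR1 (20.4% and 30.3%), 16 and 1 with DBDmut (15.1% and 20%), 16 and 5 with DDX4 (19.2% and 21.5%), and 14 and 7 with M2 (20.5% and 27.2%). The median log2 fold change of the 38 was 0.77 with CBR and 0.55 with delIDR1. Against the own pair, 30 of the 38 rose and 2 fell with CBR (28.2% and 33.7%), 25 and 2 with delIDR1 (23.7% and 34%), 20 and 8 with DBDmut (29.4% and 31.6%), 22 and 2 with DDX4 (26.3% and 26.8%), and 20 and 7 with M2 (24.2% and 30.3%). The balance thus kept its direction, and the count of lower genes with DBDmut was 8 in place of 1. The DDX4 count was 15 in all without either DDX4 library, against 26 with both.

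Most constructs of set 3 gave the opposite balance. With 42YS, 3 of the 49 rose and 15 fell (15.8% and 18.0% of all genes), with Block9del 6 rose and 16 fell (17.8% and 21.2%), and with Block13del 6 rose and 14 fell (19.1% and 20.2%). AQGscram had 7 higher and 8 lower (10.9% and 13.7%), and A457_G461del 10 higher and 7 lower (19.1% and 19.9%). Among the 38 genes read in the empty vector, 3 rose and 15 fell with 42YS (16.3% and 19.5%), 2 and 16 with Block9del (18.7% and 23%), 3 and 14 with Block13del (19.4% and 22%), 7 and 8 with AQGscram (10.7% and 15%), and 5 and 7 with A457_G461del (18.5% and 21.6%). The counts of AQGscram and A457_G461del were near these background shares, and they moved with the control pair. With AQGscram, 11 rose and 16 fell against empty vector replicates 1 and 2 as the only control (29.4% and 30.8% of all genes), and 15 rose and 9 fell against replicates 3 and 4 (15.2% and 18.8%). With A457_G461del, 12 rose and 17 fell against replicates 1 and 2 (31.9% and 31.4%), and 16 rose and 7 fell against replicates 3 and 4 (23.8% and 24.1%), so that the balance of both constructs turned round with the control. For 42YS, Block9del and Block13del more genes fell than rose against either pair. The shares of all genes against each pair were not counted for these constructs, so that balance has no background beside it. Neither pair belongs to set 3, so the balance of its constructs cannot be told apart from a difference between sets. Leaving out a library also mattered in this set: the total called was 8 without AQGscram replicate 2, 10 without 42YS replicate 1, 9 and 10 without Block13del replicate 1 or 2, and 10 and 14 without Block9del replicate 1 or 2, against 15, 18, 20 and 22 with all libraries.

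**Figure D1:**
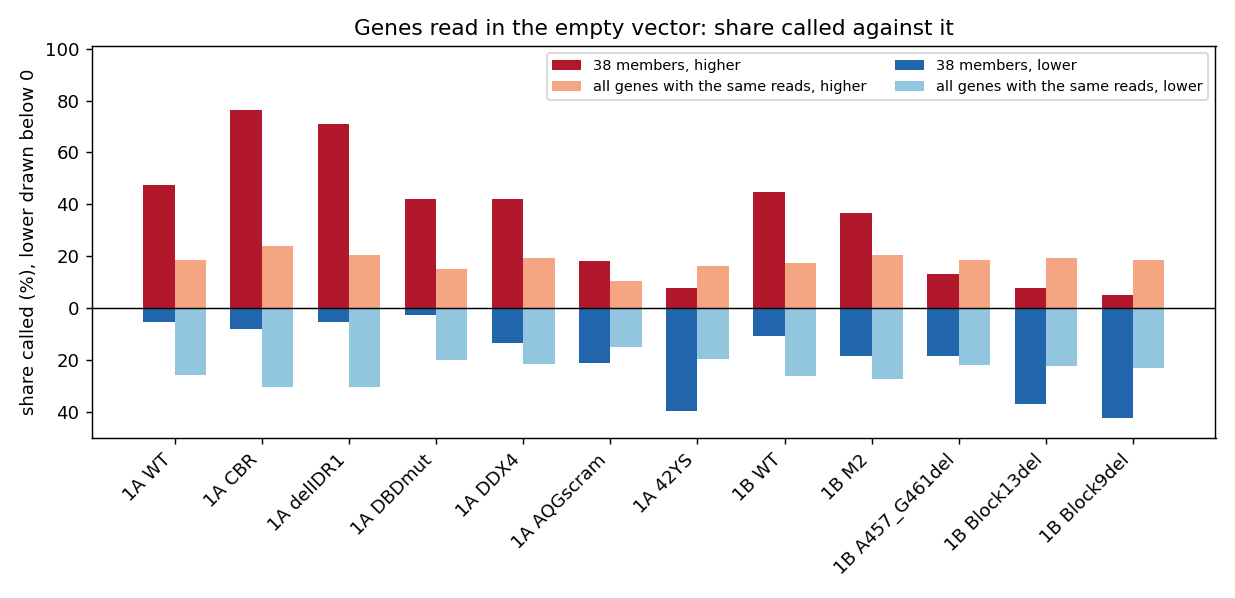
Share (percent) of the 38 axon guidance genes read in the empty vector, and of the 12963 genes read there by the same rule, that rose or fell in each construct against the 4 empty vector libraries (adjusted p under 0.05, edgeR's quasi-likelihood test). With CBR 29 of the 38 rose and 3 fell, and with 42YS 3 rose and 15 fell.

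By family, the gains with ARID1A WT covered 9 of 14 tested semaphorins and 6 of 9 plexins. They also covered 4 of 7 tested Eph receptors, 2 of 8 ephrins, 2 of 4 netrins, NTNG2, NRP1 and 1 Slit. The genes that fell were the ephrin EFNA2 and the receptor ROBO3. ARID1B WT gave higher calls in 7 semaphorins, 5 plexins, 4 Eph receptors, 3 ephrins, 2 netrins, NTNG2, NRP1, ROBO1 and SLIT3. The 4 genes lower with ARID1B WT were SEMA6A, EFNA2, NTN1 and ROBO3. Ligands and receptors were both present among the higher genes. Of 29 ligands and 20 receptors tested, 15 and 11 rose with ARID1A WT and 14 and 11 with ARID1B WT. Over all genes tested, 21.1% rose with ARID1A WT and 19.2% with ARID1B WT. The family counts include genes that entered the test mainly through construct groups. Such genes were 2 semaphorins, 2 plexins, 2 Eph receptors, 2 ephrins, 1 netrin, NRP1 and 1 Slit.

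**Figure D2:**
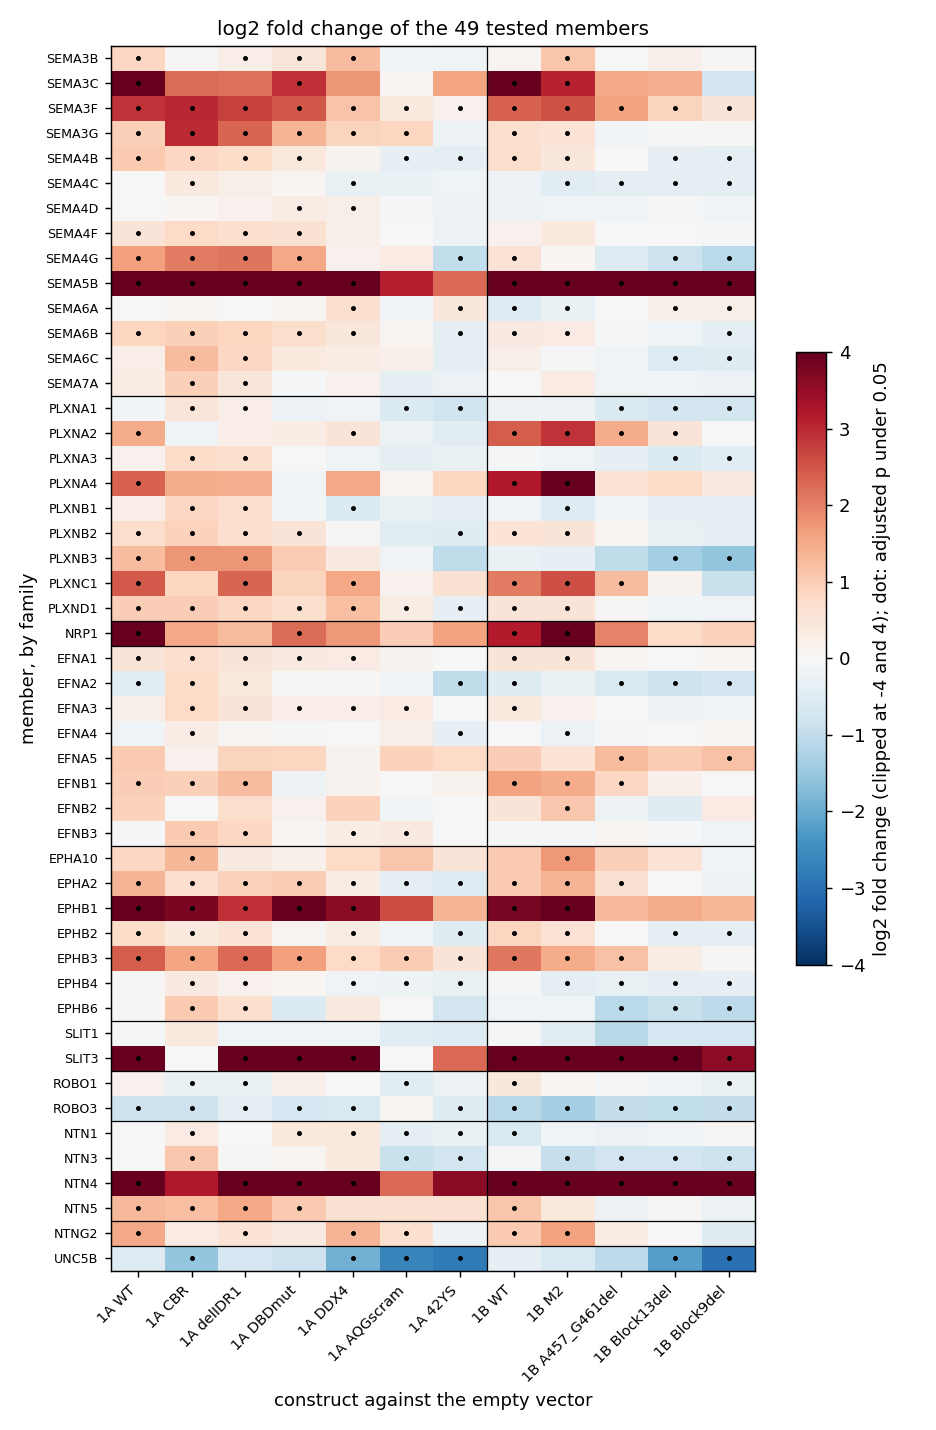
Log2 fold change of the 49 tested genes (down the page, by family) in each of the 12 constructs (across) against the 4 empty vector libraries, with colours limited at 4 in either direction and a dot where the adjusted p was under 0.05. SEMA3F carries a dot in all 12 constructs, and ROBO3 is lower with a dot in every construct except AQGscram.

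Among the ligands, SEMA5B, a transmembrane semaphorin with thrombospondin repeats, had a wide range. It was read at 5.56 and 4.92 CPM in ARID1A WT libraries, 16.3 and 17.6 CPM in ARID1B WT libraries and 8.6 and 8.5 CPM in M2 libraries, and no read in any of the 4 empty vector libraries. Against the floor of 3 reads over the empty vector group, DBDmut was at least 13.4-fold higher, delIDR1 at least 14.9-fold, CBR at least 19.9-fold, Block13del at least 21.0-fold, A457_G461del at least 65.6-fold and M2 at least 221-fold. DDX4 and Block9del came close to the floor, at least 3.31-fold and at least 2.12-fold higher. AQGscram libraries had 0.0453 and 0.0397 CPM and 42YS libraries 0 and 0.0412 CPM, and neither passed the test. Within the ARID1B constructs SEMA5B was highest with ARID1B WT, followed by M2, A457_G461del, Block13del and Block9del. A457_G461del, Block13del and Block9del also stood in this order in ARID1B RNA, whereas M2 had more ARID1B RNA than ARID1B WT. The part of construct RNA in these levels was not tested.

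SLIT3, a secreted Robo ligand, and NTN4, a secreted basement membrane netrin, were likewise without a read in the empty vector. SLIT3 stood at 1.99 and 1.97 CPM with ARID1A WT, 1.92 and 1.46 CPM with ARID1B WT and 1.8 and 2 CPM with M2, which was at least 51.1-fold, 43.3-fold and 48.9-fold above the empty vector floor. It had 0.48 and 0.692 CPM with DBDmut, 0.285 and 0.431 CPM with A457_G461del, and no read in either CBR library or either AQGscram library. NTN4 was highest with M2, at 4.2 and 4.85 CPM, against 2.69 and 2.62 CPM with ARID1A WT, 1.25 and 1.25 CPM with DBDmut and 0.879 and 1.13 CPM with ARID1B WT. These libraries did not overlap with the empty vector, and M2 was at least 116-fold, ARID1A WT at least 68.6-fold, DBDmut at least 32.2-fold and ARID1B WT at least 26.2-fold above its floor. With CBR, NTN4 had 0.044 and 0.0466 CPM and did not pass the test. SEMA3C, a secreted class 3 semaphorin, had 1.29 and 0.843 CPM with ARID1A WT and 0.604 and 0.802 CPM with ARID1B WT, against 0.0907, 0, 0 and 0.0557 CPM with the empty vector. On 3 empty vector reads, the ratio of counts was 26.9 for ARID1A WT (95% counting interval 8.57 to 136) and 18.4 for ARID1B WT (5.67 to 94.4), and both passed the test. The fitted log2 fold change of SEMA3C with ARID1A WT was 4.58, and 5.48 without empty vector replicate 1.

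**Figure D3:**
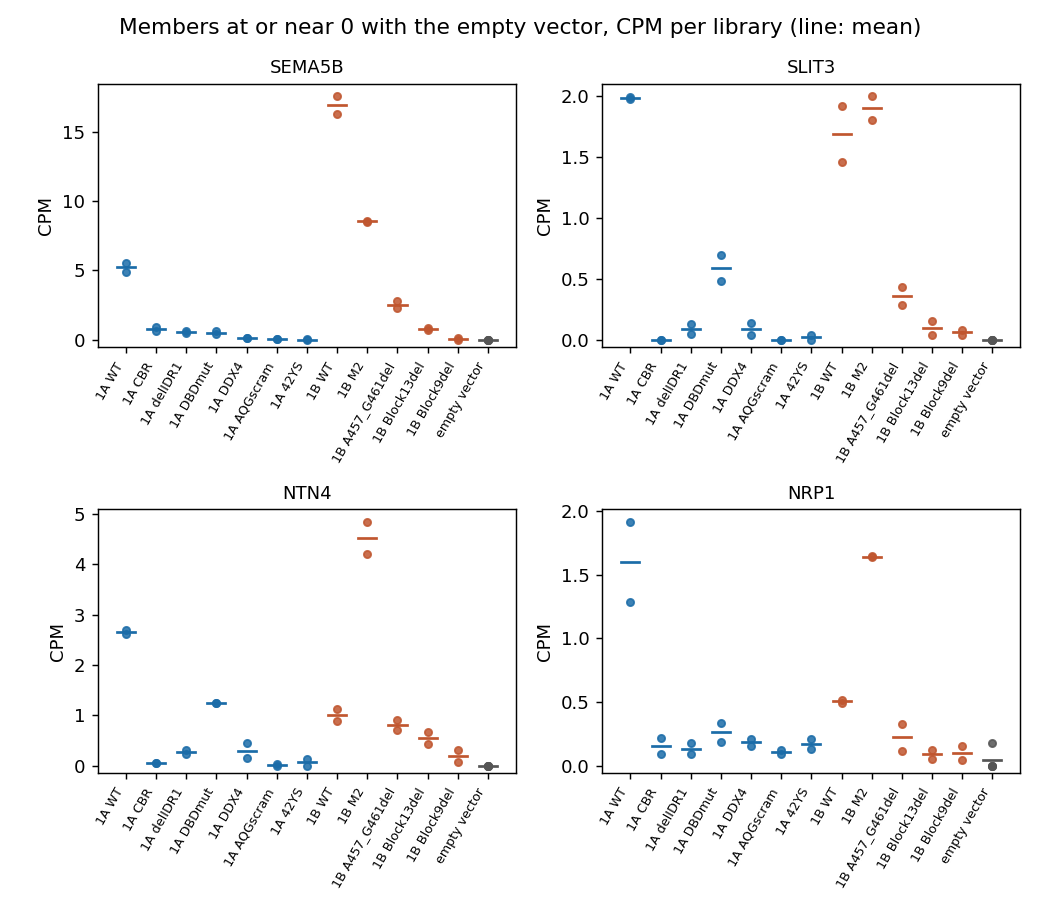
CPM of SEMA5B, SLIT3, NTN4 and NRP1 in each library, with constructs first and the empty vector last, each point 1 library. SEMA5B is highest with ARID1B WT (16.3 and 17.6 CPM), NTN4 with M2 (4.2 and 4.85 CPM), and SLIT3 has no read with CBR.

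SEMA3F, a secreted semaphorin that signals through neuropilin-2 and class A plexins, was higher in every construct. It reached 283 and 272 CPM with ARID1A WT, 310 and 298 CPM with CBR, 248 and 248 CPM with delIDR1, 215 and 204 CPM with DBDmut, 198 and 192 CPM with ARID1B WT and 220 and 218 CPM with M2, against 39.1, 40.1, 36.2 and 35 CPM with the empty vector. The log2 fold change was 2.88 ± 0.0542 (SE) with ARID1A WT (adjusted p 9.8e-19, edgeR's quasi-likelihood test) and 2.37 ± 0.0542 with ARID1B WT (1.53e-17). The other constructs formed a graded series: A457_G461del had 115 and 116 CPM, DDX4 81.1 and 83.9, Block13del 68.5 and 69.7, Block9del 51.6 and 54.9, AQGscram 47.2 and 52.1, and 42YS 41.3 and 42.6 CPM. All of these stood above the highest empty vector library. The lowest step, 42YS, had a log2 fold change of 0.16 with an adjusted p of 0.0417. It was 0.08 and past no threshold against empty vector replicates 1 and 2, and without either 42YS library (0.18 and 0.13) or without empty vector replicate 3 or 4 (0.14 and 0.12) the call was lost. NRP2, the co-receptor of SEMA3F, was among the genes with too few reads to test.

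SEMA3G and SEMA3B, both secreted class 3 semaphorins, had other orders. SEMA3G was highest with the 2 truncations, at 14.8 and 14.2 CPM with CBR and 9.08 and 9.48 CPM with delIDR1, against 3.69 and 3.42 CPM with ARID1A WT and 2.22, 1.71, 1.63 and 1.67 CPM with the empty vector. Against the empty vector its log2 fold change was 2.99 ± 0.125 with CBR, 2.34 ± 0.128 with delIDR1 and 0.96 ± 0.145 with ARID1A WT. SEMA3B was highest with DDX4 (273 and 282 CPM) and M2 (255 and 261 CPM), followed by ARID1A WT (221 and 205 CPM), against 113, 107, 126 and 127 CPM with the empty vector. It had 128 and 128 CPM with ARID1B WT, a log2 fold change of 0.11 that did not pass the test, and 0.06 with CBR. CBR thus had the highest mean of SEMA3G and no call for SEMA3B, and M2 was called higher for both.

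SEMA4B, SEMA6B, SEMA4C and SEMA6A, all membrane semaphorins, moved less than SEMA3F with either wild type. SEMA5B, also a membrane semaphorin, had the wide range given above. SEMA4B rose with ARID1A WT by 1.05 ± 0.0766 on the log2 scale, at 62.7 and 69.3 CPM against 35.1, 35.1, 28.1 and 28.8 CPM with the empty vector, and by 0.70 with ARID1B WT. It fell by 0.40 with 42YS and by 0.35 with Block9del, whose libraries all lay below the lowest empty vector library. SEMA6B rose by 0.85 with ARID1A WT and by 0.94 with CBR, and fell by 0.40 with 42YS. SEMA4C, a ligand of PLXNB2, had log2 fold changes between -0.43 with M2 and 0.40 with CBR. SEMA6A, a transmembrane ligand of PLXNA2 and PLXNA4, was called in opposite directions in different constructs. It had 413 and 406 CPM with DDX4 and 361 and 363 CPM with 42YS, but 180 and 189 CPM with ARID1B WT and 221 and 213 CPM with M2, against 252, 271, 262 and 263 CPM with the empty vector. The log2 fold change was 0.64 ± 0.0585 with DDX4 (adjusted p 8.13e-08), 0.46 ± 0.0589 with 42YS, -0.51 ± 0.0614 with ARID1B WT (1.74e-06) and -0.27 ± 0.0606 with M2 (edgeR's quasi-likelihood test). The empty vector pairs did not separate for this gene, with a log2 difference of 0.00. SEMA4G is read with caution, since only 42.8%, 25.4% and 13.8% of its reads in sets 1, 2 and 3 lay on the strand that was counted. For SEMA4D these shares were 75.8%, 82.5% and 78.9%, and for the plexin PLXNC1 they were 52.8%, 55.4% and 21.3%, so no level of SEMA4G or PLXNC1 is described. They stand in the counts above: without these 3 genes, 24 of 46 rose and 2 fell with ARID1A WT, of them 8 semaphorins and 5 plexins, and 23 rose and 4 fell with ARID1B WT.

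Ephrins fell into 2 patterns. EFNB1, a transmembrane ligand of the EphB receptors, was highest with ARID1B WT (54.2 and 56.7 CPM) and M2 (50 and 50.8 CPM), followed by delIDR1 (42.6 and 41.9 CPM), CBR (36.6 and 33.4 CPM) and ARID1A WT (35.7 and 35 CPM), against 20.6, 21.4, 14.2 and 15.3 CPM with the empty vector. Its log2 fold change was 1.62 ± 0.116 with ARID1B WT and 0.97 ± 0.119 with ARID1A WT. DBDmut had 16.8 and 14.3 CPM, within the empty vector range, and fell by 0.44 against its own pair. EFNB3 rose with CBR (1.05 ± 0.0899), delIDR1 (0.84 ± 0.0905), AQGscram (0.36) and DDX4 (0.29), and the DDX4 call was lost against its own pair (0.11). EFNA2, a membrane-anchored ligand of EphA receptors, moved both ways. It had 9.46 and 9.32 CPM with CBR and 7.77 and 7.37 CPM with delIDR1, against 5.62, 5.35, 6.28 and 5.3 CPM with the empty vector, whereas 42YS had 2.76 and 2.76 CPM. EFNA2 rose by 0.74 ± 0.112 with CBR and fell by 1.02 ± 0.129 with 42YS. The smaller fall with ARID1A WT (-0.42) lost its call without ARID1A WT replicate 2 (-0.27), and that with ARID1B WT (-0.47) without ARID1B WT replicate 1 (-0.41).

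NTNG2, a membrane-anchored netrin-G, rose with M2 (1.61), ARID1A WT (1.51 ± 0.186), DDX4 (1.35) and ARID1B WT (1.04), at 4.89 and 5.16 CPM with M2 and 4.45 and 4.92 CPM with ARID1A WT, against 1.9, 1.57, 1.63 and 1.45 CPM with the empty vector. NTN1, the best known secreted netrin, fell by 0.61 with ARID1B WT, at 9.34 and 9.86 CPM against 16.1, 16.8, 11.8 and 13.8 CPM with the empty vector, and rose by 0.43 with DBDmut and by 0.41 with DDX4. NTN3, a less studied netrin, rose by 1.08 with CBR, at 5.46 and 5.27 CPM against 1.62 to 3.35 CPM with the empty vector. It was called lower with M2 (1.34 and 1.34 CPM, a log2 fold change of -0.92) and with all 5 constructs of set 3 (-0.89 to -0.73), of which AQGscram and 42YS overlapped with the empty vector. The M2 call was lost against its own pair (-0.53), and those of all 5 set 3 constructs against empty vector replicates 3 and 4 (-0.51 to -0.34), whereas DDX4 was called higher against its own pair only (0.79).

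Among the receptor families, which differ in size, the plexins, PLXNC1 included, had the largest number of higher calls with ARID1A WT and with ARID1B WT. Without PLXNC1, 5 plexins were called higher with ARID1A WT and 4 with ARID1B WT, the latter no more than the Eph receptors. Over all genes tested, 21.1% and 19.2% rose. With DBDmut, more Eph receptors than plexins were called higher against the own pair. PLXND1, the receptor of SEMA3E, rose with all 7 constructs of sets 1 and 2, from 0.50 on the log2 scale with M2 to 1.20 ± 0.0595 with DDX4. DDX4 libraries had 103 and 105 CPM and ARID1A WT libraries 85.1 and 91.7 CPM, against 46.2, 43.7, 42.4 and 48.4 CPM with the empty vector, without overlap. In set 3, PLXND1 rose by 0.29 with AQGscram and fell by 0.34 with 42YS. PLXNA2, a class A plexin that binds SEMA6A, had 19.3 and 19.5 CPM with M2, 13 and 15 CPM with ARID1B WT, 7.67 and 6.93 CPM with ARID1A WT and 7.42 and 7.09 CPM with A457_G461del, against 2.54, 2.56, 2.49 and 2.9 CPM with the empty vector. Its log2 fold change was 2.88 ± 0.126 with M2, 2.41 ± 0.13 with ARID1B WT and 1.47 ± 0.138 with ARID1A WT. CBR, delIDR1 and DBDmut gave no call for PLXNA2, with log2 fold changes of -0.17, 0.27 and 0.31. PLXNB2, a class B plexin and receptor of class 4 semaphorins, rose by 0.71 with ARID1A WT, at 590 and 600 CPM against 442, 460, 272 and 280 CPM with the empty vector, and by 0.55 with ARID1B WT. Its empty vector averaged 451 CPM in the set of ARID1A WT and 276 CPM in that of ARID1B WT. The order of these PLXNB2 gains thus depends on the control used. PLXNA1, another class A plexin, was the one that fell across set 3: its log2 fold change was -0.79 ± 0.0988 with 42YS, -0.73 with Block9del, -0.72 with Block13del, -0.59 with AQGscram and -0.57 with A457_G461del. Each of these falls was also called against either empty vector pair alone, between -0.97 and -0.75 against replicates 1 and 2 and between -0.58 and -0.36 against replicates 3 and 4. Both pairs lie outside set 3, so construct and set cannot be told apart in these falls.

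NRP1, the neuropilin that binds class 3 semaphorins and VEGF, was called higher in 4 constructs. It had 1.29 and 1.92 CPM with ARID1A WT, 1.64 and 1.65 CPM with M2 and 0.495 and 0.519 CPM with ARID1B WT, against 0.181, 0, 0 and 0 CPM with the empty vector. All 4 empty vector reads lay in replicate 1. The fitted log2 fold change was 4.84 ± 0.579 with ARID1A WT, and it was 8.18 without that replicate, a value that then depends on the prior count. DBDmut (0.336 and 0.185 CPM) passed at an adjusted p of 0.0442 and did not pass against its own pair (0.131). DDX4 (a mean of 0.182 CPM) gave no call against the 4 empty vector libraries, and was called higher against its own pair, which had no NRP1 read (adjusted p 0.0193, edgeR's quasi-likelihood test).

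**Figure D4:**
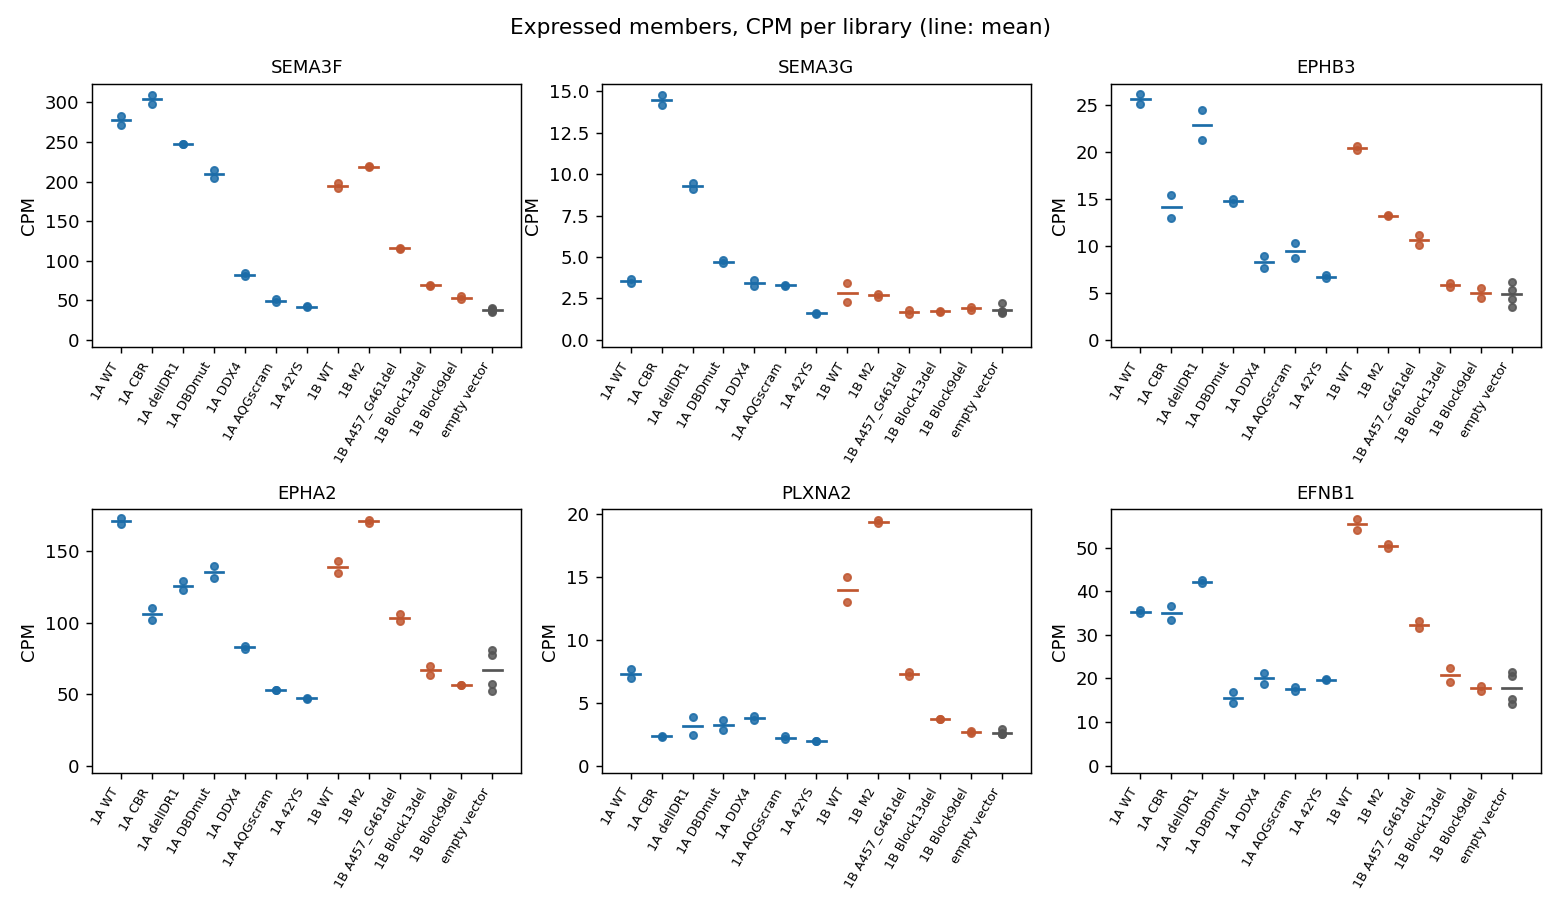
CPM of SEMA3F, SEMA3G, EPHB3, EPHA2, PLXNA2 and EFNB1 in each library, with constructs first and the empty vector last, each point 1 library. PLXNA2 is highest with M2 (19.3 and 19.5 CPM), SEMA3G with CBR (14.8 and 14.2 CPM) and EPHA2 with ARID1A WT (173 and 169 CPM) and M2 (170 and 172 CPM).

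Eph receptors with gains included EPHB3, EPHA2, EPHB2 and EPHB1. EPHB3, a receptor of the B ephrins that positions cells in intestinal epithelium, had 26.2 and 25.2 CPM with ARID1A WT, 24.5 and 21.3 CPM with delIDR1 and 20.3 and 20.7 CPM with ARID1B WT, against 3.54, 4.32, 6.21 and 5.35 CPM with the empty vector. The log2 fold change was 2.43 ± 0.137 with ARID1A WT and 2.10 ± 0.139 with ARID1B WT. AQGscram, at 8.74 and 10.3 CPM, also stood above all 4 empty vector libraries (1.00, adjusted p 1.19e-04, edgeR's quasi-likelihood test), and it did so against each pair, with 1.28 and 0.73. EPHA2, an ephrin-A receptor common in carcinoma, had 173 and 169 CPM with ARID1A WT and 135 and 143 CPM with ARID1B WT, against 81.1, 77.5, 52.1 and 57.4 CPM with the empty vector. Its empty vector averaged 79.3 CPM in the set of ARID1A WT and 54.7 CPM in that of ARID1B WT. The order of these EPHA2 gains thus depends on the control used. EPHA2 fell by 0.51 with 42YS, at 46.5 and 47.5 CPM. EPHB2 rose by 0.72 with ARID1A WT and by 0.86 with ARID1B WT. EPHB1 was read once in the empty vector, in replicate 2, and had 1.41 and 1.34 CPM with M2 and 0.768 and 0.83 CPM with DBDmut. The ratio of counts to that single read was 107 for M2 (95% counting interval 18.5 to 4280), 62.0 for DBDmut and 34.3 for ARID1A WT (5.38 to 1430). EPHB4, the receptor of EFNB2, changed little: it rose by 0.37 with CBR and fell by 0.14 to 0.38 in DDX4, M2 and the 5 constructs of set 3, of which the DDX4 call was lost against its own pair (-0.08).

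The 2 Robos with enough reads were ROBO3 and ROBO1. ROBO3, a Robo that regulates midline crossing in the nervous system, fell in every construct except AQGscram. It had 12.5 and 11.2 CPM with ARID1A WT, 9.56 and 10.1 CPM with ARID1B WT and 9.4 and 7.66 CPM with M2, against 21.6, 25, 18.8 and 19.5 CPM with the empty vector. The log2 fold change was -0.84 ± 0.122 with ARID1A WT, -1.11 ± 0.125 with ARID1B WT and -1.32 ± 0.125 with M2. The weakest fall, delIDR1 (-0.35), lost its call without delIDR1 replicate 2 (-0.33, adjusted p 0.101, edgeR's quasi-likelihood test). AQGscram had 20.4 and 25.8 CPM, within the empty vector range. ROBO1, the broadly expressed Slit receptor, rose by 0.44 ± 0.0913 with ARID1B WT and fell by 0.42 with AQGscram, where its libraries differed at 145 and 102 CPM. The falls of ROBO1 with CBR and delIDR1 (-0.28 each) were lost against their own pair (-0.19 each).

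UNC5B, a netrin receptor, could not be read against the pooled empty vector. Its empty vector libraries had 45.3 and 41.5 CPM in set 2 and 338 and 332 CPM in set 1, a log2 difference of -2.95 ± 0.0654 between replicates 3 and 4 and replicates 1 and 2. Within sets it was lower in set 1 and higher with the ARID1B constructs of set 2. It had 133 and 133 CPM with ARID1A WT, a log2 fold change of -1.33 against the own pair, and fell by 2.37 with CBR, by 1.49 with delIDR1 and by 1.64 with DBDmut. With ARID1B WT it had 149 and 155 CPM, and rose by 1.81 against the own pair, with M2 by 1.53 and with DDX4 by 0.21. Against all 4 libraries, ARID1A WT (-0.51) and ARID1B WT (-0.32) gave no call. 42YS (25.6 and 28.2 CPM), AQGscram (30.9 and 30.4 CPM) and Block9del (22.8 and 25.2 CPM) lay below both empty vector pairs, and against replicates 3 and 4 they fell by 0.69, 0.50 and 0.86. PLXNB3, a class B plexin, had the same kind of split, at 1.24 and 1.28 CPM in replicates 3 and 4 and 7.25 and 8.18 CPM in replicates 1 and 2 (-2.61 ± 0.155). It was higher in all 7 constructs of sets 1 and 2 against their own pair, by 0.29 to 2.25 on the log2 scale. Smaller log2 differences of replicates 3 and 4 minus replicates 1 and 2 touched EPHB6 (-1.26), PLXNB1 (-0.94), PLXNB2 (-0.71), EPHA2 (-0.53), EFNB1 (-0.50) and EPHB3 (0.55).

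**Figure D5:**
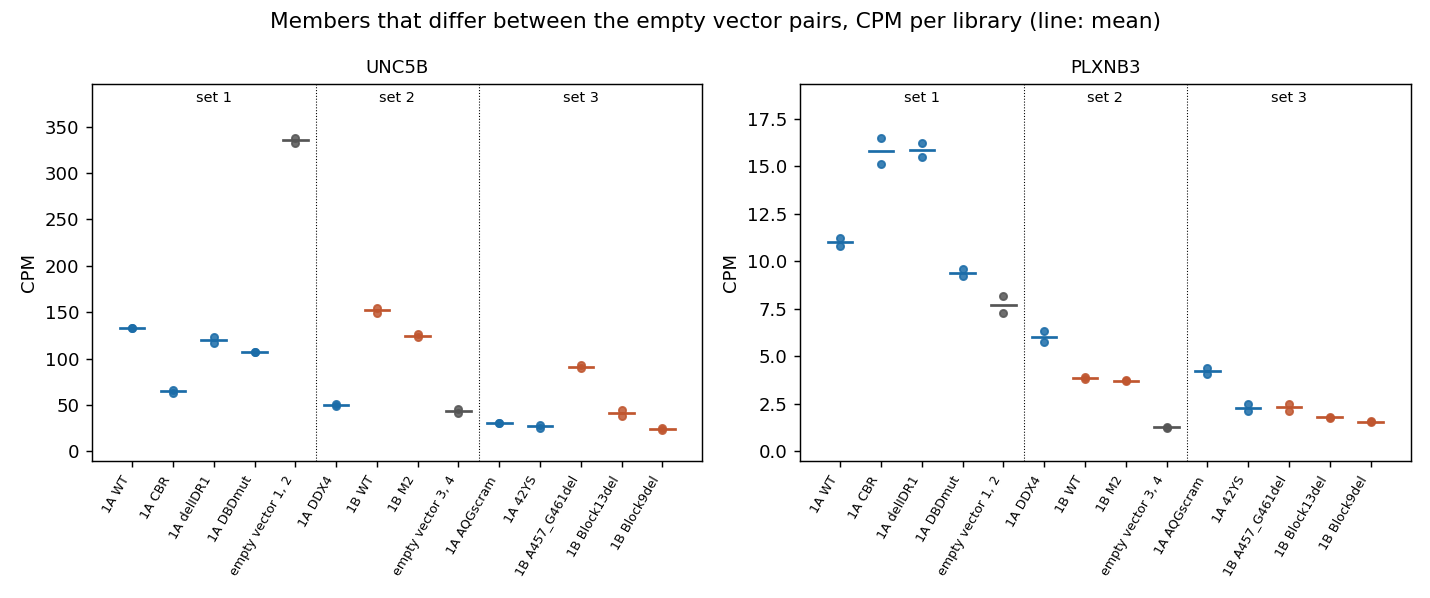
CPM of UNC5B and PLXNB3 per library within the 3 strand sets, constructs first and the empty vector pair of the set last, with set 3 shown without an empty vector. UNC5B is at 338 and 332 CPM in the empty vector pair of set 1 and at 45.3 and 41.5 CPM in that of set 2.

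Within set 1, the mutants were set against ARID1A WT itself. CBR was higher for 15 and lower for 14 of the 49 genes (22.2% and 25.3% of all genes), delIDR1 for 7 and 13 (17.4% and 22.7%), and DBDmut for 2 and 12 (0.999% and 4.62%). Of the 38 genes read in the empty vector, 15 were higher and 8 lower with CBR (23.3% and 24.7% of the 12963 genes read there), 7 and 7 with delIDR1 (18.3% and 22.4%), and 2 and 9 with DBDmut (1.03% and 3.48%). With the empty vector pairs fitted as separate groups, delIDR1 had 16 of the 38 higher and 9 lower (26.9% and 32.5%). Leaving out a library lowered the DBDmut total from 14 to 8 or 9 for DBDmut replicate 2 or 1 and to 8 for ARID1A WT replicate 2, and the delIDR1 total from 20 to 13 for delIDR1 replicate 1. SLIT3, SEMA5B and PLXNA2 were below ARID1A WT in all 3 mutants. SLIT3, at 0 in both CBR libraries and 1.99 and 1.97 CPM in ARID1A WT libraries, was at least 29.1-fold lower with CBR. NTN4 was lower with CBR by a ratio of counts of 58.6 (95% counting interval 15.8 to 491), and its fall with delIDR1 was 3.30 on the log2 scale. PLXNA2 was lower by 1.64 with CBR, 1.20 with delIDR1 and 1.17 with DBDmut. SEMA5B was lower by 2.75, 3.17 and 3.32 in the same order. For SLIT3 in DBDmut (-1.74 ± 0.373, adjusted p 0.0109, edgeR's quasi-likelihood test), the call was lost without any 1 of the 4 libraries, at values between -2.03 and -1.51. EFNB1 was lower with DBDmut by 1.19 ± 0.143, and CBR and delIDR1 gave no call for it.

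Against ARID1A WT, the truncations raised genes as well. SEMA3G rose by 2.03 ± 0.145 with CBR and by 1.39 ± 0.147 with delIDR1, EFNA2 by 1.16 and 0.85, EFNB3 by 1.13 and 0.92, SEMA6C by 1.01 and 0.54, and PLXNA1 by 0.61 and 0.38. In these 5 genes CBR had the larger value. SEMA3F and EPHB3 were lower than ARID1A WT with DBDmut, by 0.40 and 0.80, and EPHB3 and EPHA2 were lower with CBR (by 0.86 and 0.69). ARID1A RNA was 1040 and 998 CPM with CBR, 597 and 581 CPM with delIDR1 and 636 and 694 CPM with DBDmut, against 702 and 764 CPM with ARID1A WT.

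DDX4 lay in another set than ARID1A WT. It was higher for 7 and lower for 17 of the 49 genes (16.8% and 19.6% of all genes), and for 7 and 12 of the 38 read in the empty vector (18.0% and 17.8% of the 12963). By own pairs 11 of the 38 were higher and 11 lower (27.2% and 26.8%). SEMA3F was lower by 1.75 ± 0.065, EPHB3 by 1.63 and EPHA2 by 1.05, and the difference of the own-pair fold changes was -1.59, -2.18 and -0.51 for these, each past the threshold. SEMA6A was higher by 0.62 and, by own pairs, by 0.61. PLXNB1 and PLXNB2, lower by 0.79 and 0.65, lost their calls by own pairs (0.15 and 0.06).

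ARID1A WT was higher than ARID1B WT for 10 and lower for 3 of the 49 genes (8.96% and 4.56% of all genes), and for 8 and 2 of the 38 (8.41% and 4.55% of the 12963). These groups also lay in different sets, and by own pairs the balance turned round, with 8 of the 38 higher and 13 lower (24.7% and 20.2%). The 3 lower genes of the 49 were SEMA5B (-1.69 ± 0.229, adjusted p 1.37e-04, edgeR's quasi-likelihood test), PLXNA2 (-0.94 ± 0.145) and EFNB1 (-0.65 ± 0.135). By own pairs PLXNA2 was lower by 0.86 and EFNB1 by 1.15, both still called. SEMA5B had no empty vector read, so its own-pair difference could not be estimated. SEMA3B (0.73), SEMA6A (0.53), SEMA3F (0.51), SEMA6B (0.51) and PLXND1 (0.44) were higher with ARID1A WT and were called by own pairs as well. NTN4 (1.39) and NRP1 (1.66) were called higher, but each lost its call without any 1 of the 4 libraries, at values from 1.23 to 1.59 for NTN4 and from 1.33 to 1.91 for NRP1. By own pairs the NRP1 difference turned round to -2.43 and gave no call, a value that rests on the 4 empty vector reads of set 1 and none in set 2. The total of 13 was 8 without ARID1B WT replicate 1.

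M2 and ARID1B WT shared set 2, and M2 was higher for 7 and lower for 4 genes (8.31% and 6.01% of all genes). Of the 38, 4 were higher and 3 lower (8.56% and 5.76% of the 12963), and with the empty vector pairs fitted as separate groups 8 were higher and 12 lower (20% and 15.6%). EPHB1 (2.42 ± 0.444, adjusted p 9.96e-04), NTN4 (2.15 ± 0.377, 0.00104) and SEMA3B (1.01) were higher with M2 in edgeR's quasi-likelihood test. SEMA5B (-0.98 ± 0.219) and EPHB3 (-0.63) were lower with M2, and both calls were lost without either M2 library or without ARID1B WT replicate 2, at -0.99 to -0.93 and -0.63 to -0.61. The total of 11 was between 4 and 6 without any 1 of the 4 libraries.

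In set 3, 42YS was lower than AQGscram for 13 genes and higher for 1 of the 49 (7.54% and 8.24% of all genes). All 14 were genes read in the empty vector. The gene higher with 42YS was SEMA6A (0.57), and the lower ones included SEMA3G (-1.04 ± 0.168), EFNA2 (-0.92), NTNG2 (-0.86), PLXND1 (-0.64) and ROBO3 (-0.59). The total was 6 without AQGscram replicate 2, 7 without 42YS replicate 1 and 8 without 42YS replicate 2. A457_G461del was higher than Block13del for 7 genes and lower for 1 (3.59% and 1.89% of all genes), and higher than Block9del for 11 and lower for 1 (8.2% and 4.39%). Of the 38 genes read in the empty vector, 6 were higher and 1 lower against Block13del (3.45% and 2.08% of the 12963). Against Block9del, 7 of the 38 were higher and 1 lower (7.59% and 4.8%). SEMA5B, PLXNA2, SEMA3F, EPHB3, EPHA2 and EFNB1 were higher with A457_G461del in both comparisons, and SEMA6A was lower in both by 0.25. PLXNA2 was higher by 0.97 than with Block13del and by 1.43 than with Block9del, and SEMA3F by 0.74 and 1.11. Against Block13del, SEMA5B (1.64) lost its call without Block13del replicate 1 (1.54), and EPHB3 (0.86) without A457_G461del replicate 2 (0.79) or Block13del replicate 2 (0.81). The lower SEMA6A lost its call in both comparisons without any 1 of the 4 libraries, at -0.29 to -0.22. Without A457_G461del replicate 2 or either Block13del library the total of 8 against Block13del was 3, 3 and 5, and without A457_G461del replicate 1 or Block9del replicate 1 the total of 12 against Block9del was 6.

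Genes that work beside these ligands and receptors were followed in 5 lists. Of 30 semaphorin and plexin co-receptors and effectors, 12 rose and 2 fell with ARID1A WT and 8 rose and 3 fell with ARID1B WT, 26 having been tested. Of 20 Eph and ephrin effectors, 10 rose and 2 fell with ARID1A WT and 8 rose and 3 fell with ARID1B WT. Of 21 Slit and Robo effectors, 14 rose and 1 fell with ARID1A WT and 9 rose and 2 fell with ARID1B WT. The netrin list of 25 genes had 10 higher and 4 lower with each wild type. Growth cone genes, 20 in all, had 6 higher and 1 lower with ARID1A WT and 6 higher and 0 lower with ARID1B WT. With 42YS, whose set has no empty vector, the growth cone genes had 0 higher and 5 lower. Of these lists, 19 Eph and ephrin, 17 Slit and Robo, 18 netrin and 16 growth cone genes were tested. The list counts include genes that entered the test mainly through construct groups, such as MET, CNTN2 and DCX, which had no empty vector read. Such genes had to be higher there, and list genes read in the empty vector were not counted apart. The shares of all genes were 21.1% higher and 23.5% lower with ARID1A WT, 19.2% and 23.9% with ARID1B WT, and 15.8% and 18.0% with 42YS. Against the own pair (29.9% and 30.8% of all genes with ARID1A WT, 23.6% and 28.5% with ARID1B WT), the semaphorin and plexin list had 13 higher and 8 lower with ARID1A WT and 10 and 1 with ARID1B WT. The Eph and ephrin list then had 8 and 4 with ARID1A WT and 12 and 2 with ARID1B WT, the Slit and Robo list 14 and 2 and 12 and 3, the netrin list 10 and 6 and 10 and 4, and the growth cone list 9 and 2 and 8 and 2.

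L1CAM, an adhesion molecule of axons and a neuropilin partner, averaged 22.7 CPM with ARID1A WT and 0.43 CPM with the empty vector, a log2 fold change of 5.68 ± 0.178, and rose by 4.0 with ARID1B WT. MCAM, an endothelial and melanoma adhesion molecule that binds netrin, averaged 18.4 CPM with ARID1A WT and 0.348 CPM with the empty vector. DCX, the microtubule-binding protein of migrating neurons, averaged 12.3 CPM with ARID1A WT, 13.9 CPM with ARID1B WT and 0 CPM with the empty vector. In the growth cone list, STMN2 and GAP43 had no read with either wild type. TUBB3 and MAP1B gave no call with either against the 4 empty vector libraries. Against the own pair TUBB3 rose by 0.27 with ARID1A WT and fell by 0.65 with ARID1B WT. L1CAM, MCAM and DCX are known from neurons or vessels. The summed endothelial markers overlapped between construct and empty vector libraries, as given above. SYP, the neuron marker above 1 CPM, was at 3.67 to 5.35 CPM in the constructs of set 2, below its own empty vector pair at 11.6 and 10.4 CPM, and at 3.33 to 5.41 CPM in those of set 1, against 4.49 and 4 CPM in their pair. The part of these markers in the results was not tested. CAP2, a cyclase-associated actin regulator, rose by 1.45 ± 0.0469 with ARID1A WT and by 1.48 with ARID1B WT, and SRGAP3, a Robo-binding GTPase activator, by 2.45 and 2.96. LIMK1, which phosphorylates cofilin downstream of semaphorin signals, rose by 0.88 and 0.73. PLXDC1, a plexin-domain membrane protein, fell by 0.90 and 1.21, and RASA1, a Ras GTPase activator recruited by EphB receptors, fell by 0.45 with ARID1A WT. DPYSL2, the semaphorin 3A mediator CRMP2, fell by 1.02 with ARID1B WT, but by 0.07 against the own pair.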

How the data were processed

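The deposited files hold read counts per gene for each library, which the authors made from polyA RNA-seq of AN3CA cells; per the labels' protocols, RNA was extracted with an RNeasy kit and libraries were made with the NEBNext mRNA kit. The submitters' processing notes name bcl2fastq, STAR 2.5.2b, Bowtie2 2.29 and the build hg19, without their roles. The counter and annotation are not given in the sources used here. Reads that fell on no gene or on several were 12.9% to 28.5% per library and were left out of library sizes.

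Counts were analysed with edgeR 4.0.16 in R 4.3.3: TMM scaling, filterByExpr by group, 1 quasi-likelihood fit over 28 libraries and 13 groups, and Benjamini-Hochberg adjustment over 14220 genes, called under 0.05. CPM values use TMM-scaled library sizes; SE is the log2 fold change divided by the root of the F statistic. Folds against a group without reads use a floor of 3 reads over the group; intervals (95%) and floors cover counting error only. Genes were named by a fixed rule: those of largest change among called members with at least 1 CPM in a group. Members named outside it were chosen after their values were seen. The code was tested on simulated data. The members, gene lists and tests were chosen with earlier results of these data known. Upstream sequences are from RefSeq (GRCh38.p14), matched by symbol for 60 of 71 members; coordinates were not carried between builds. Shared replicate numbers did not pair the libraries.

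Alternatives were other scaling (RLE), DESeq2 1.42.0, no filter, a filter at an average log2 CPM of 1, reads counted on both strands, only the groups compared, the own pair of empty vector libraries, a replicate block and leaving out each library. Comparing set 3 with each empty vector pair, and counting without 3 genes that had many reads on the other strand, were added after seeing the data.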

Additional observations from a re-analysis of the deposited data

Results flagged for a closer look

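In 4 of the 46 axon guidance genes with any spread among the 4 empty vector libraries, 1 of those libraries stood apart from the other 3 by Dixon's gap test at its 95% critical value, and chance flags about 1 in 20 groups. SEMA3G had 2.22 CPM in empty vector replicate 1, against 1.71, 1.63 and 1.67 CPM in the others, below every library of CBR, delIDR1, DBDmut and ARID1A WT. PLXNA2 had 2.9 CPM in replicate 4, against 2.54, 2.56 and 2.49 CPM, a gap far smaller than its gains with M2, ARID1B WT and ARID1A WT. NRP1 had 0.181 CPM in replicate 1, which is 4 reads, and 0 in the other 3, and EPHB1 had 0.045 CPM in replicate 2, which is 1 read, and 0 in the other 3. For NRP1 and EPHB1 the flag rests on these few reads.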

How the results depend on the processing

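Under RLE scaling, DESeq2, no filter, a filter at an average log2 CPM of 1, reads counted on both strands, and without SEMA4D, SEMA4G and PLXNC1, the count of genes called stayed within 1.5 times in all 21 comparisons. Fits to only the groups compared gave 21 calls for CBR, 16 for delIDR1, 12 for DBDmut, 8 for DDX4, 3 for 42YS, 19 for ARID1B WT, 20 for M2, 8 for A457_G461del, 5 for Block13del, 3 for Block9del and 0 for AQGscram (edgeR; 9 at an unadjusted p under 0.05, and 16 by DESeq2 over all libraries), each against the empty vector. Between constructs they gave 33 for delIDR1 and 25 for DBDmut against ARID1A WT, 29 for ARID1A WT against ARID1B WT, 29 for M2 against ARID1B WT, and 16 and 23 for A457_G461del against Block13del and Block9del. The replicate numbers did not pair the libraries: same-numbered libraries of 66 pairs of constructs had correlations of their deviations from -0.247 to 0.268, and 4 were over 0.1. With a replicate block, which leaves empty vector replicates 3 and 4 without a partner, the counts were 27 for AQGscram, 29 for A457_G461del, 31 and 24 for delIDR1 and DBDmut against ARID1A WT, 24 for ARID1A WT and 25 for M2 against ARID1B WT, and 13 and 23 for A457_G461del against Block13del and Block9del. The own-pair fit gave 31, 25, 22 and 24 for the same 4 comparisons with a wild type. Empty vector replicates 1 and 2 as the only control gave 27 for AQGscram and 29 for A457_G461del, and replicates 3 and 4 gave 24 for AQGscram. Leaving out 1 library gave totals against the empty vector of 25 to 31 for ARID1A WT, 27 to 36 for CBR, 26 to 37 for delIDR1, 17 to 25 for DBDmut, 15 to 27 for DDX4, 8 to 21 for AQGscram, 10 to 22 for 42YS, 24 to 33 for ARID1B WT, 25 to 34 for M2, 12 to 21 for A457_G461del, 9 to 25 for Block13del and 10 to 24 for Block9del. Against ARID1A WT they were 20 to 25 for CBR, 13 to 16 for delIDR1, 8 to 12 for DBDmut and 19 to 20 for DDX4. The other totals were 8 to 11 for ARID1A WT and 4 to 6 for M2 against ARID1B WT, 6 to 14 for 42YS against AQGscram, and 3 to 6 and 6 to 8 for A457_G461del against Block13del and Block9del. Of the named gene values, own pairs kept 74 calls, lost 10 and turned 4 round. Fits to only the groups compared kept 96 and lost 34. Directions turned round by own pair for UNC5B (0.21) and PLXNB1 (0.01) with DDX4, PLXNB1 with M2 (0.02) and NRP1 in ARID1A WT against ARID1B WT (-2.43). They also turned for PLXNB3 with Block13del (0.51) and Block9del (0.30) against empty vector replicates 3 and 4, and for SEMA4G with 42YS (0.79) and Block9del (0.31) on both strands. The cause was not tested. Depth limits the genes without empty vector reads, whose folds are lower bounds.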

Other observations

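Several A ephrins and low-level receptors outside the values above also differed by construct. EFNA1, a soluble or membrane-anchored ligand of EPHA2, rose with all 7 constructs of sets 1 and 2, from 0.33 on the log2 scale with DDX4 to 0.67 ± 0.096 with CBR, at 24.4 and 27.8 CPM with CBR against 15.3, 14.5, 17.2 and 18.6 CPM with the empty vector. The DDX4 call was lost against its own pair (0.20), and none of the 5 constructs of set 3 gave a call. EFNA3 rose by 0.80 ± 0.091 with CBR, at 47 and 44.5 CPM against 27, 22, 30.3 and 25.9 CPM with the empty vector. PLXNA4, the receptor of class 3 and class 6 semaphorins, was read 33 and 34 times in M2 libraries and 19 and 11 times in ARID1B WT libraries, against 0, 1, 2 and 3 times in the empty vector, and was called higher in both and with ARID1A WT (9 and 7 reads). SEMA7A, the membrane-anchored semaphorin, rose by 0.94 ± 0.149 with CBR, at 12.1 and 12.3 CPM against 5.44, 6.29, 7.06 and 6.58 CPM with the empty vector. EPHB6, an Eph receptor without kinase activity, had 11.7 and 9.74 CPM with CBR, above all empty vector libraries, but its empty vector pairs themselves stood at 7.3 and 6.97 CPM and at 2.75 and 3.18 CPM. These genes were chosen after their values were seen.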
